A study of Mus musculus with 18 samples.

Results

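The genes described here moved the same way with both siRNAs against *Zfp598* and were counted well. They were chosen by 3 conditions. A gene had a mean of 50 or more counts over all 18 libraries of the series, an adjusted p under 0.05 for *Zfp598* KD against Scramble KD with the siRNA letter as a block, and log2 fold changes of the same sign with siRNA A and with siRNA B. Of 55414 genes in the count table, 12110 were well counted, and 699 of these met the rule, 272 higher and 427 lower in *Zfp598* KD. Every well-counted gene called in the fit with the letter block had the same sign with both siRNAs. Because measured values chose the genes, their fold changes are given as a description and without a test.

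N2A cells, a mouse neuroblastoma line, were transfected with a Scramble control siRNA or with a Silencer Select siRNA against *Zfp598*, and total RNA was taken after 72 h, depleted of rRNA and sequenced. Each condition had 2 siRNAs, A and B, with 3 libraries each, so that Scramble KD and *Zfp598* KD had 6 libraries each, named A1 to A3 and B1 to B3. *Fmr1* KD, another condition of the series, has the same layout and is given only as values. Per the study, the libraries of an siRNA came from repeated knockdowns, all in 1 cell line. The p-values of a single siRNA therefore measure the spread between knockdowns of this line. The fit with the letter block has no term for a difference between the siRNAs. Its p-values also take in the disagreement between siRNA A and siRNA B. The letters A and B name different siRNAs in each condition, and an siRNA of *Zfp598* KD was compared with the Scramble siRNA of its letter.

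*Zfp598*, called ZNF598 in human cells and Hel2 in yeast, is an E3 ubiquitin ligase that recognises collided ribosomes and marks small-subunit proteins for ribosome rescue and no-go decay, in which the mRNA under the collision is cut and degraded. Collided ribosomes can also signal through GCN2, a kinase of the initiation factor eIF2. Phosphorylated eIF2 lowers general translation while raising that of ATF4, a transcription factor that turns on amino acid, redox and cell-death genes such as *Ddit3* and *Chac1*. The unfolded protein response of the endoplasmic reticulum (ER), with its sensors PERK, IRE1 and ATF6, feeds into the same program.

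Total counts ranged from 12151589 to 15414590 in Scramble KD and from 7674724 to 13360908 in *Zfp598* KD. Libraries *Zfp598* A2 and A3 stood apart, with totals of 10856132 and 7674724 and with 15.2% and 25.8% of their counts on 1 feature that had no entry in GENCODE M39, and its median share in Scramble KD was 5.62%. Scramble A1 was the other library over 10%, at 11.1%. Distances between libraries of an siRNA, computed on log2(CPM + 1) over well-counted genes, were 35.5 to 59.9 for *Zfp598* siRNA A and 21.2 to 22.9 for *Zfp598* siRNA B. CPM is the number of counts of a gene per 1000000 counts of its library, with library sizes scaled by edgeR's TMM method. The summed level of 14 neuroblastoma and neuron markers was 3696 to 5549 CPM in Scramble KD and 4510 to 5912 CPM in *Zfp598* KD, whereas 8 macrophage markers summed to 1.28 to 4.30 CPM over the 12 libraries and the other 6 marker lists, among them fibroblast, astrocyte and endothelial genes, to at most 114 CPM. In bulk RNA, fewer cells that express a gene and less RNA per cell cannot be told apart.

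*Zfp598* itself (chr17:24888631-24900993, + strand, GRCm39) was the most reduced gene when ranked by the smaller of its 2 fold changes. Its level was 103 CPM at the lowest, 119 at the median and 128 at the highest in Scramble KD, against 32.0, 41.1 and 48.5 CPM in *Zfp598* KD. The conditions did not overlap, and the log2 fold change was −1.53 ± 0.10 (SE, n = 6 against 6), with −1.54 for siRNA A and −1.52 for siRNA B. The difference between the siRNAs was 0.02 on the log2 scale (adjusted p = 0.967). In *Fmr1* KD the level was 90.7 to 122 CPM.

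Among the 12110 well-counted genes, the share called was 2.25% higher and 3.53% lower, and these shares are the background for every count of a gene list below. The changes were small. The median log2 fold change was 0.49 for the 272 higher genes and −0.52 for the 427 lower genes, beside 0.00 over all well-counted genes, and 18 higher and 24 lower genes passed 2-fold. With siRNA A the medians were 0.39 and −0.40, and with siRNA B 0.57 and −0.60. The counts depended on single libraries. Leaving out any 1 library of siRNA B, Scramble B1, B2 or B3 or *Zfp598* B1, B2 or B3, left 91 to 119 higher and 191 to 226 lower genes, whereas leaving out *Zfp598* A1 gave 795 and 944. Without the 2 libraries that stood apart, *Zfp598* A2 and A3, there were 438 higher and 714 lower genes, of which 184 and 344 were among the genes as chosen. In all, 72 higher and 168 lower genes were called with each of the 12 libraries left out in turn, and so were 57 of the 112 called genes named here.

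**Figure D1:**
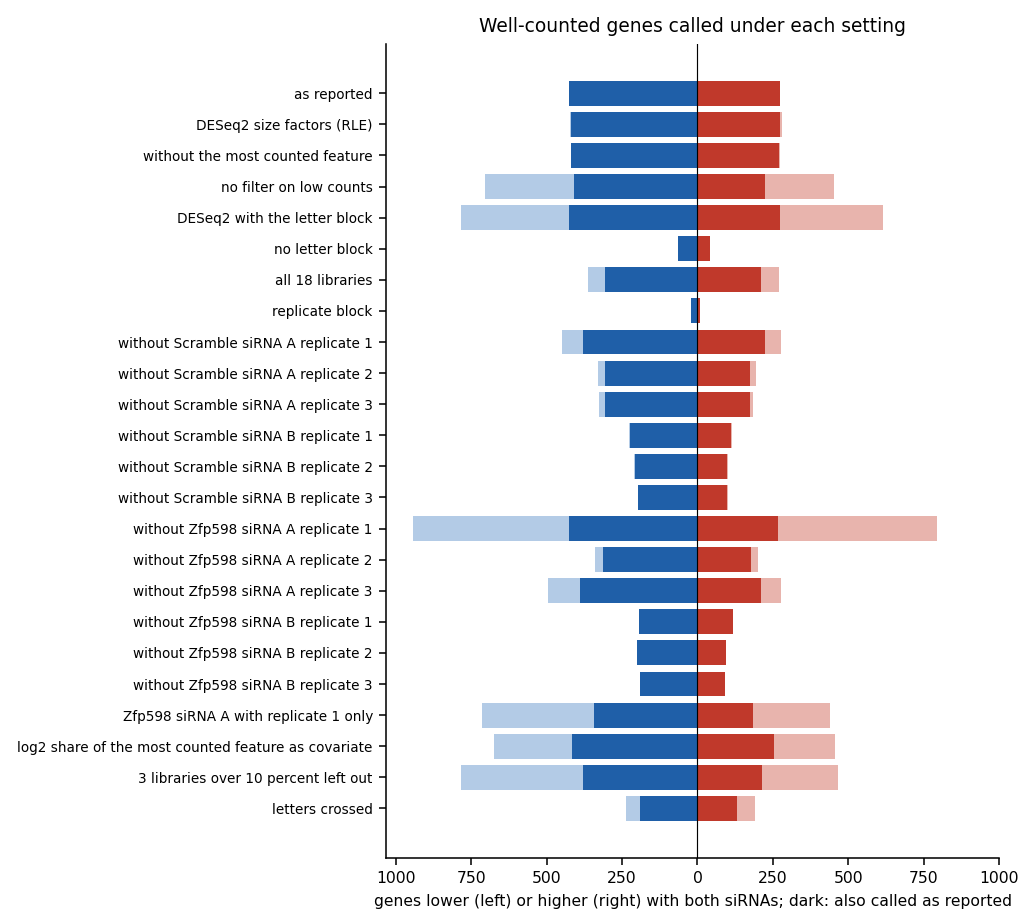
Number of well-counted genes called lower (left) and higher (right) with both siRNAs under each setting (rows), with dark bars for genes that were also among the 427 lower and 272 higher genes as reported. The bars are longest without *Zfp598* A1, at 944 and 795 genes, and shortest with a replicate block, at 21 and 10.

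Each siRNA alone gave many more calls than the pair shared. Against its Scramble siRNA, siRNA A alone called 1185 genes (9.79% of the well-counted genes) and siRNA B 3208 (26.5%). Both siRNAs called 466 genes, but only 149 of these went in the same direction, 39 higher (0.322%) and 110 lower (0.908%), and all 149 are among the genes described here. The other 317 went in opposite directions, 183 higher with siRNA A and lower with siRNA B and 134 the reverse. Of the 699 genes, 250 passed with siRNA A alone, 575 with siRNA B alone and 23 with neither. The difference between the siRNAs passed its test for 2584 well-counted genes (21.3%) and for 146 of the 699, where 124 changed more with siRNA B and 22 more with siRNA A.

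Overlap between libraries gave a narrower set. All 6 *Zfp598* KD libraries lay above all 6 Scramble KD libraries for 116 well-counted genes (0.958%) and below them for 179 (1.48%), of which 78 and 127 are among the genes described here. Of these, 25 higher and 56 lower genes also passed with each siRNA alone. The threshold on the adjusted p fell between *Prx* and *Chchd10*, both at 0.04997, and *Cyth3* at 0.05007 and *Ubox5* at 0.0503. By mean count, *Mir124a-1hg* at 50.2 and *Gm7435* at 52.1 were just inside, and *Igdcc3* at 49.8 and *Caly* at 49.5 just outside. *Dbh*, *Map3k8* and *Tbr1* had means under 50 counts and are not included.

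**Figure D2:**
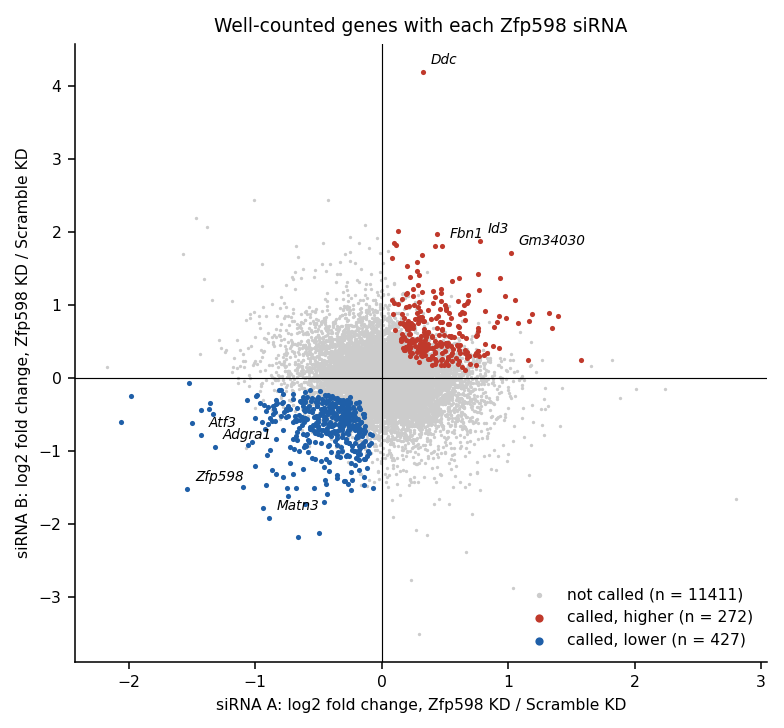
Log2 fold change of *Zfp598* KD against Scramble KD for 12110 well-counted genes with siRNA A (x axis) and siRNA B (y axis), 1 point per gene, with the 272 higher genes in red and the 427 lower genes in blue. *Zfp598* lies at −1.54 and −1.52, and *Ddc* lies far from the diagonal, at 0.33 with siRNA A and 4.19 with siRNA B.

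The gene list with the most lower genes was that of the ATF4 stress response. Of its 34 well-counted genes, 8 (23.5%) were lower, with a median log2 fold change of −0.11 with siRNA A and −0.40 with siRNA B. These 8 were *Ddit3*, *Nupr1*, *Chac1*, *Eif4ebp1*, *Mthfd2*, *Gdf15*, *Wars1* and *Slc7a5*, and the first 5 were called with each of the 12 libraries left out. None was higher in edgeR's test with the letter block, 2 were at an unadjusted p under 0.05, and DESeq2 called 0. With each siRNA alone, 2 of the 34 were called in opposite directions. Without *Zfp598* A2 and A3, 17 were lower and 1 was higher. Promoters of 6 lower genes are printed so that known response elements can be seen in place, those of *Chac1* and *Nupr1* from this list and those of 4 stress-response genes of other lists described below. The sequences are the 250 bases before the transcription start from RefSeq (GRCm38.p6), read 5′ to 3′ on the strand of the gene. Capitals mark a CARE for ATF4 (TGATGNAA), a CRE (TGACGTCA) or an ER stress element, ERSE (CCAAT, 9 bases of any kind, then CCACG), on either strand.
*Chac1*, chr2:119350992-119351241, + strand, CARE: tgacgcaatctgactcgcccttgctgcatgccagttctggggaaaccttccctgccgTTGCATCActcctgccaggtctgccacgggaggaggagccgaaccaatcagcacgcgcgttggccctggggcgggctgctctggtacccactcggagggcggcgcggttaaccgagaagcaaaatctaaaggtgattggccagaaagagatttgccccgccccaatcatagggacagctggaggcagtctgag
*Nupr1*, chr7:126625471-126625720, − strand, CARE: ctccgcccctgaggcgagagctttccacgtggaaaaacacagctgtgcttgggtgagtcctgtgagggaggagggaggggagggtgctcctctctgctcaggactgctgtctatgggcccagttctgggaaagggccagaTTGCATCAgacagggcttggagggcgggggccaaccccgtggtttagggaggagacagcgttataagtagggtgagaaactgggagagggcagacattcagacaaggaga
*Atf3*, chr1:191183334-191183583, − strand, CARE: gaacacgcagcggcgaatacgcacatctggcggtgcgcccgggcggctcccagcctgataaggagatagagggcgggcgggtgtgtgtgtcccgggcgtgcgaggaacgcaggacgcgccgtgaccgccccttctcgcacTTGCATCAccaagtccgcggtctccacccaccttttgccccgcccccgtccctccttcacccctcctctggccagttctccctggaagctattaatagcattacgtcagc
*Ppp1r15a*, chr7:45526269-45526518, − strand, CRE: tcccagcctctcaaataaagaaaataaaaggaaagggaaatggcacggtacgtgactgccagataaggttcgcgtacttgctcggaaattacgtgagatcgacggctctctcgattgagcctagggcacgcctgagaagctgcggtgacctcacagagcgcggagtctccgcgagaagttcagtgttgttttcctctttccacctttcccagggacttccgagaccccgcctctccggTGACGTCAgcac
*Calr*, chr8:84846932-84847181, − strand, ERSE: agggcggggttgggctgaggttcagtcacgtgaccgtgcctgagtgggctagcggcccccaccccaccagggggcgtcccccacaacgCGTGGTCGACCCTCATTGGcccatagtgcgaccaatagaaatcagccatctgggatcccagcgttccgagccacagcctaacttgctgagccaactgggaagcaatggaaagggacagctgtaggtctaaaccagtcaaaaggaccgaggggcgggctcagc
*Pdia6*, chr12:17266339-17266588, + strand, ERSE: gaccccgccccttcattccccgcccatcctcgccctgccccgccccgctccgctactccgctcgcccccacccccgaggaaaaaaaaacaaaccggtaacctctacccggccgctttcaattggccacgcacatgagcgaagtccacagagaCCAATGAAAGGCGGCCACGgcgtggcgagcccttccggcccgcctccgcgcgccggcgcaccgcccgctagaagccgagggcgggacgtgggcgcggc

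A promoter window of 250 bases before to 50 bases after the start was found by symbol for 8817 of the well-counted genes. A CARE stood in 2.74% of them, in 5.45% of the 312 lower genes with a window and in 2.69% of the 186 higher genes with one. Among the ATF4 genes, 6 of 24 windows held it, those of *Asns*, *Chac1*, *Nupr1*, *Pck2*, *Slc7a11* and *Trib3*, and only *Chac1* and *Nupr1* of these were called. An ERSE stood in 19 windows (0.215%), 8 of them among the 20 windows of the list for ER folding, and 3 were those of lower genes, *Calr*, *Pdia6* and *Xlr3a*. The CRE was in 3.87% of all windows, 4.17% of the lower and 4.30% of the higher genes, and an E-box (CACGTG) was in 11.8%, 12.5% and 9.68%. A match is a stretch of letters and was not tested for binding.

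*Ddit3* (chr10:127124268-127132163, + strand), which codes for the cell-death factor CHOP, had 108, 118 and 181 CPM at the lowest, median and highest library of Scramble KD and 63.7, 68.6 and 84.3 CPM in *Zfp598* KD. The libraries did not overlap, and the log2 fold change was −0.82 ± 0.12 (SE), −0.55 with siRNA A and −1.10 with siRNA B. *Nupr1*, a stress-induced chromatin protein, went from a median of 15.8 CPM to 9.29 CPM (log2 fold change −0.77 ± 0.15). The lowest Scramble KD library, at 10.2 CPM, was below the highest *Zfp598* KD library, A3. *Chac1* (chr2:119180757-119184866, + strand), which degrades glutathione, had medians of 85.4 and 51.4 CPM and changed almost equally with siRNA A (−0.61) and siRNA B (−0.57). *Eif4ebp1*, an inhibitor of the cap-binding factor eIF4E, did not overlap, at 112 to 170 CPM against 72.9 to 110 CPM (−0.58 ± 0.09). The mitochondrial folate enzyme gene *Mthfd2* changed by −0.52 ± 0.09. *Atf4* itself, whose product is controlled mainly by translation, differed by −0.10 ± 0.13 and was not called (adjusted p = 0.701), and neither was *Asns*, at −0.25 ± 0.10 (adjusted p = 0.143), or *Trib3*, at −0.55 ± 0.17 (adjusted p = 0.0786).

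*Atf3* (chr1:190902493-190950241, − strand), a transcription factor induced by collided ribosomes and by ATF4, was 1 of 2 lower genes (13.3%) among 15 well-counted genes for collision sensors and eIF2 kinases. It had 24.3, 30.6 and 40.0 CPM at the lowest, median and highest library of Scramble KD and 12.2, 14.1 and 16.6 CPM in *Zfp598* KD. No library overlapped, and the log2 fold change was −1.09 ± 0.13 (SE), larger with siRNA A (−1.42) than with siRNA B (−0.78), a difference of 0.64 (adjusted p = 0.0270). In *Fmr1* KD, *Atf3* had 68.7 to 77.8 CPM with siRNA A and 10.1 to 11.4 CPM with siRNA B. *Ppp1r15a*, the phosphatase subunit that reverses eIF2 phosphorylation, was the other, at 42.5 to 87.6 CPM in Scramble KD and 25.5 to 42.3 CPM in *Zfp598* KD (−0.63 ± 0.15). It was called with 7 of the 12 libraries left out. The kinase gene *Eif2ak4*, which codes for GCN2, was at −0.09 ± 0.09 (adjusted p = 0.622), and *Gcn1*, its activator at ribosomes, at 0.37 ± 0.14 (adjusted p = 0.134).

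**Figure D3:**
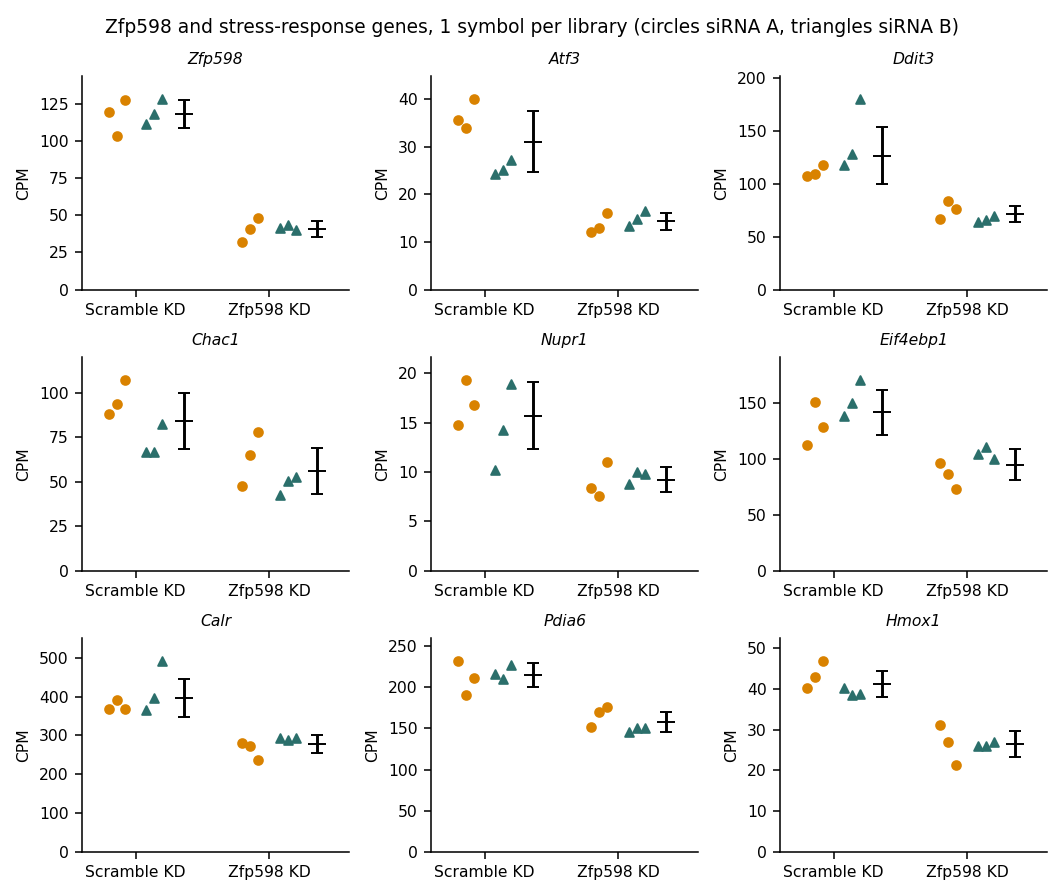
CPM of *Zfp598* and 8 stress-response genes in the 6 Scramble KD and 6 *Zfp598* KD libraries, with circles for siRNA A, triangles for siRNA B, and the mean and SD of 6 libraries beside them. *Zfp598*, *Atf3*, *Ddit3*, *Eif4ebp1*, *Calr*, *Pdia6* and *Hmox1* do not overlap between the conditions, whereas *Chac1* and *Nupr1* do.

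Of 23 well-counted genes for ER folding and the unfolded protein response, 5 (21.7%) were lower and 1 (4.35%) was higher. Without *Zfp598* A2 and A3 these counts were 4 and 1. *Calr* (chr8:85567946-85573667, − strand), a calcium-binding chaperone of the ER lumen, had 366 to 492 CPM in Scramble KD and 236 to 294 CPM in *Zfp598* KD, and it changed alike with siRNA A (−0.50) and siRNA B (−0.52). *Pdia6*, a disulfide isomerase, had 191 to 232 CPM and 146 to 177 CPM, without overlap (−0.45 ± 0.08). *Atf6*, an ER stress sensor, was at −0.43 ± 0.08, *Manf*, a secreted ER stress factor, at −0.49 ± 0.13, and *Ern1*, which codes for IRE1, at −0.27 ± 0.07. *Edem1*, which sends misfolded glycoproteins to degradation, was the higher gene, at 0.45 ± 0.11. It was called with 6 of the 12 libraries left out. Without *Zfp598* A2 and A3 it lost its call, and the higher gene counted there was another one. *Hspa5*, the main ER chaperone, was at −0.33 ± 0.11 and was not called (adjusted p = 0.0862), nor was *Xbp1* at −0.20 ± 0.09 (adjusted p = 0.189). The median over the list was −0.31 with siRNA A and −0.04 with siRNA B. *Calr*, *Pdia6* and *Atf6* were called with each library left out.

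Other stress genes were lower in smaller numbers. Of 20 NRF2 antioxidant genes, 2 (10%) were lower, and both were called with each library left out. The list as a whole was not lower. At an unadjusted p under 0.05, 4 of its genes were higher and 2 lower, and its median was −0.07 with siRNA A and 0.10 with siRNA B. With each siRNA alone, 2 genes were called lower with siRNA A and higher with siRNA B. *Hmox1* (chr8:75820241-75827217, + strand), which degrades heme, went from 38.5 to 47.0 CPM in Scramble KD to 21.2 to 31.2 CPM in *Zfp598* KD, without overlap (−0.63 ± 0.09). *Gstm1*, a glutathione transferase, changed by −0.52 with siRNA A and −0.51 with siRNA B. *Nfe2l2*, which codes for NRF2, was named after its values were seen and was lower by 0.64 ± 0.15 on the log2 scale. Of 29 chaperone genes, *Clpp*, *Dnajb4*, *Hspe1* and *Stip1* (13.8%) were lower, with log2 fold changes of −0.53, −0.44, −0.36 and −0.40, and none of these 4 kept its call with every library left out. Among lysosome and autophagy genes, *Map1lc3a* and *Ctsa* were lower and *Map1lc3b* was higher, and none of these 3 kept its call with every library left out.

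The no-go decay and ribosome rescue factors moved little apart from *Zfp598*. Of 29 well-counted genes, 3 (10.3%) were lower, *Zfp598* among them, and 1 (3.45%) was higher. *Ascc2*, a subunit of the complex that splits collided ribosomes, was at −0.44 ± 0.11, *Gtpbp2*, a rescue factor for stalled ribosomes, at −0.50 ± 0.12, and *Rnf10*, a ligase for small-subunit proteins, at 0.34 ± 0.09. All 3 were carried mostly by siRNA B, where they were at −0.67, −0.86 and 0.53, beside −0.22, −0.13 and 0.15 with siRNA A. For *Gtpbp2* the difference between the siRNAs passed its test (−0.73, adjusted p = 0.00129). They were called with 5, 6 and 3 of the 12 libraries left out. *Ascc3* (−0.18 ± 0.11, adjusted p = 0.363), *Pelo* (0.22 ± 0.17, adjusted p = 0.478), *Hbs1l* (0.05 ± 0.07, adjusted p = 0.713) and *N4bp2*, which codes for a candidate nuclease of the pathway (0.02 ± 0.13, adjusted p = 0.935), were not called. Of 33 genes of the mRNA decay machinery, the decapping genes *Dcp2* and *Dcp1b* (6.06%) were lower, at −0.38 ± 0.09 and −0.46 ± 0.11. *Gigyf2* and *Eif4e2*, which repress translation at collisions, were at −0.09 (adjusted p = 0.584) and −0.10 (adjusted p = 0.495).

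Some genes of regulated secretion were lower. Of 29 synaptic vesicle and secretory granule genes, 6 (20.7%) were lower and 23 were not called, and 10 had a negative log2 fold change with both siRNAs. None was higher in the fit with the letter block, whether by edgeR's test, by DESeq2 or at an unadjusted p under 0.05. With each siRNA alone, however, 2 of the 29 were called lower with siRNA A and higher with siRNA B. The median over the list was −0.22 with siRNA A, −0.06 with siRNA B and −0.02 with both. Without *Zfp598* A2 and A3, 7 were lower and 1 was higher. *Vgf* (chr5:137055246-137062205, + strand), a neuropeptide precursor, had 826 CPM in its lowest Scramble KD library, a median of 1073 and a highest of 1137, against 432, 515 and 824 CPM in *Zfp598* KD. Its libraries did not overlap by a narrow margin (−0.81 ± 0.14). *Syt4*, a synaptotagmin of secretory vesicles, had medians of 83.2 and 60.3 CPM, with log2 fold changes of −0.53 and −0.64 for siRNA A and siRNA B. *Rab3c*, a vesicle GTPase, changed by −0.35 with siRNA A and −1.07 with siRNA B, a difference of −0.72 (adjusted p = 0.00918). *Scg3* and *Rab3a*, at −0.46 ± 0.11 and −0.43 ± 0.10, and the granin gene *Scg2*, at −0.61 ± 0.12, were the other lower genes. *Ptprn*, a membrane protein of dense-core granules, and *Syt7*, a calcium sensor of exocytosis, were named after their values were seen and were lower by 0.70 ± 0.09 and 0.52 ± 0.10. Of 23 ion channel genes, *Scn2a*, a voltage-gated sodium channel of neurons, had 64.6 to 76.3 CPM in Scramble KD and 43.0 to 60.5 CPM in *Zfp598* KD (−0.49 ± 0.09), and *Kcnk3* (−0.56 ± 0.14) was the other lower gene (8.70%).

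The 15 largest falls by the smaller of the 2 fold changes, *Zfp598* and *Atf3* included, fell on genes of different kinds. *Aebp1* (chr11:5811762-5822112, + strand), which codes for a secreted collagen-binding protein, was the most abundant of the others. It had 145, 161 and 157 CPM in Scramble A1 to A3 against 73.1, 80.7 and 92.3 CPM in *Zfp598* A1 to A3, and 89.3, 97.3 and 92.4 CPM in Scramble B1 to B3 against 31.5, 35.3 and 34.5 CPM in *Zfp598* B1 to B3. The change within each letter was larger than the spread of its libraries, although the ranges of the 2 conditions met at 89.3 and 92.3 CPM. *Pvr* (chr7:19637503-19655085, − strand), a cell adhesion receptor also called CD155, went from 36.1 to 43.5 CPM in Scramble KD to 16.1 to 22.4 CPM in *Zfp598* KD (−1.07 ± 0.10). *Adgra1*, an adhesion G-protein-coupled receptor, went from 9.22 to 16.5 CPM to 4.71 to 7.04 CPM (−1.13 ± 0.13). Neither overlapped. *Matn3*, a matrilin of the extracellular matrix, fell more with siRNA B (−1.92) than with siRNA A (−0.89), a difference of −1.02 (adjusted p = 0.0254). *Otog*, an otogelin, *Car6*, a secreted carbonic anhydrase, *Bco1*, a carotenoid-cleaving enzyme, *Cdk15*, a cyclin-dependent kinase family member, *Hhipl1* and *Lgi3* had log2 fold changes of −0.83 to −1.37 from medians of 6.55 to 11.3 CPM in Scramble KD. *Gm31663* and *Gm2830*, at −1.28 and −1.04, are annotated as pseudogenes, and their counts are uncertain where they share sequence with other genes. All 15 of these genes were called with each library left out.

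*Ciart*, a repressor of the circadian clock, was among the 15, at 10.6 to 15.5 CPM in Scramble KD and 3.01 to 9.28 CPM in *Zfp598* KD (−0.94 ± 0.18). Other clock genes were looked at after that value was seen. *Bhlhe41* and *Nfil3* were lower, at −0.66 ± 0.15 and −0.43 ± 0.10, each called with 7 of the 12 libraries left out. *Per2* was at −0.39 ± 0.11 (adjusted p = 0.0567), *Nr1d1* at −0.45 ± 0.20 (adjusted p = 0.198), *Bmal1* at 0.24 ± 0.12 (adjusted p = 0.264) and *Cry1* at 0.17 ± 0.14 (adjusted p = 0.539), and none was called. *Dbp* was at 0.05 with siRNA A and −1.49 with siRNA B, a difference of −1.54 (adjusted p = 0.00357).

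Among the higher genes, *Id3* (chr4:135870808-135873066, + strand), which codes for an inhibitor of basic helix-loop-helix factors, had 2.61, 4.32 and 5.91 CPM at the lowest, median and highest library of Scramble KD and 6.35, 10.3 and 14.1 CPM in *Zfp598* KD. The log2 fold change was 1.34 ± 0.22 (SE), with 0.77 for siRNA A and 1.87 for siRNA B, and the siRNAs differed by 1.10 (adjusted p = 0.0269). In *Fmr1* KD, which shares the Scramble KD libraries, it had 12.4 to 15.9 CPM. Of 14 Id and BMP-SMAD genes, *Id3* and *Smad4* (14.3%) were higher. The median over the list was 0.04 with both siRNAs, and with each siRNA alone 3 of the 14 were called in opposite directions. *Smad4*, the common mediator of BMP and TGF-beta signals, went from 132 to 151 CPM in Scramble KD to 174 to 242 CPM in *Zfp598* KD, without overlap (0.50 ± 0.09). *Id1* was at 0.20 ± 0.18 and was not called (adjusted p = 0.553). *Fbn1* (chr2:125142514-125349913, − strand), which codes for fibrillin, the microfibril protein that holds TGF-beta family ligands, had medians of 11.6 and 26.6 CPM without overlap, at 0.47 with siRNA A and 1.81 with siRNA B (difference 1.34, adjusted p = 0.000546).

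**Figure D4:**
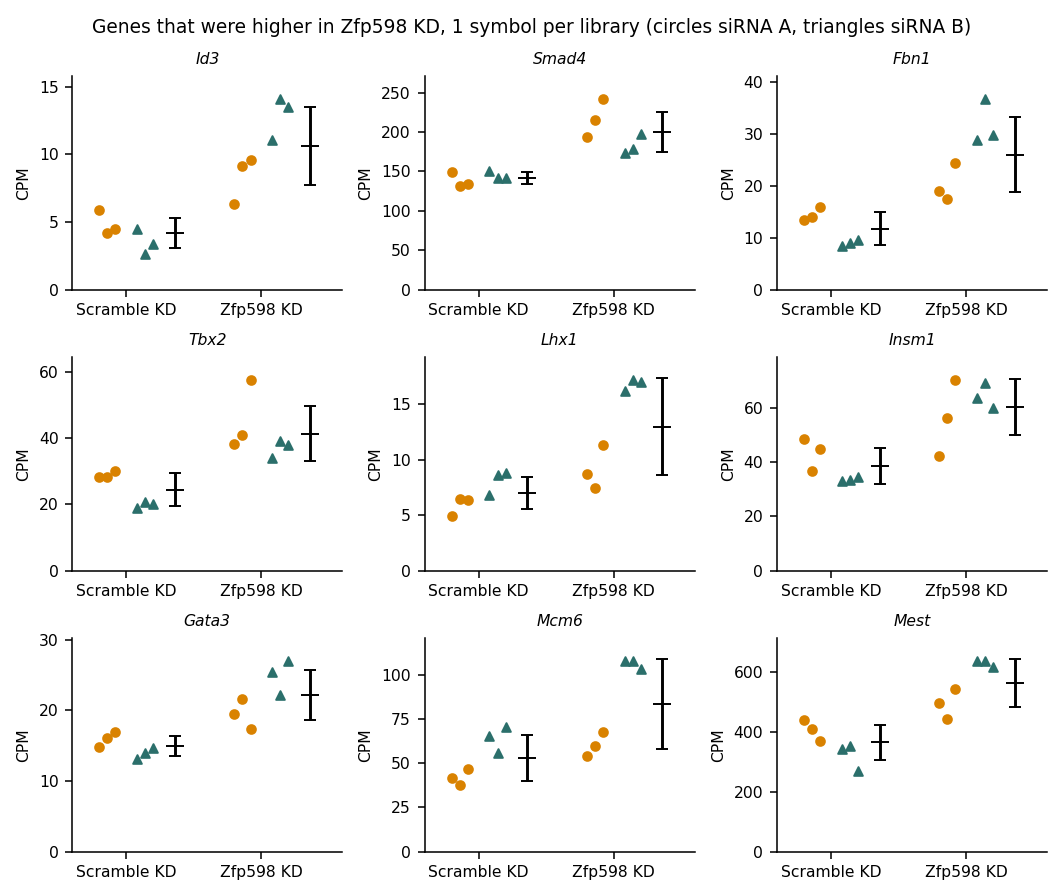
CPM of 9 genes that were higher in *Zfp598* KD, in the 6 Scramble KD and 6 *Zfp598* KD libraries, with circles for siRNA A, triangles for siRNA B, and the mean and SD of 6 libraries beside them. *Id3*, *Smad4*, *Fbn1*, *Tbx2*, *Gata3* and *Mest* do not overlap between the conditions, and *Lhx1*, *Insm1* and *Mcm6* overlap.

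Sympathetic and neural transcription factors were among the higher genes. Of 20 catecholamine and noradrenergic genes, *Phox2a*, *Insm1*, *Chrna7*, *Ddc* and *Gata3* (25%) were higher. None was lower in the fit with the letter block, whether by edgeR's test, by DESeq2 or at an unadjusted p under 0.05. With each siRNA alone, however, 3 of the 20 were called lower with siRNA A and higher with siRNA B. Without *Zfp598* A2 and A3 the count of higher genes was 3. *Gata3*, a zinc finger factor of sympathetic neurons, had 14.9 ± 1.39 CPM in Scramble KD and 22.2 ± 3.59 CPM in *Zfp598* KD (mean and SD, n = 6 each), without overlap but with a gap smaller than the spread within either condition (0.57 ± 0.12). *Insm1*, a zinc finger factor of neuroendocrine cells, had medians of 35.5 and 61.7 CPM (0.66 ± 0.13). *Chrna7*, a subunit of the nicotinic acetylcholine receptor, had medians of 13.7 and 20.8 CPM (0.51 ± 0.11). *Ddc*, which makes dopamine from L-DOPA, belonged almost wholly to siRNA B. It had 5.23, 3.31 and 2.65 CPM in *Zfp598* A1 to A3, beside 3.44, 3.38 and 2.62 in Scramble A1 to A3, and 23.6, 24.2 and 21.4 CPM in *Zfp598* B1 to B3, beside 1.32, 1.09 and 1.34 in Scramble B1 to B3. Its difference between the siRNAs was 3.87 (adjusted p = 3.54e-06). *Th*, the rate-limiting enzyme of the pathway, was at −0.02 ± 0.14 (adjusted p = 0.960), and *Hand2*, at 0.19 (adjusted p = 0.372), was not called either.

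Of 20 neural and T-box transcription factors, *Tbx2*, *Lhx1* and *Insm1* (15%) were higher and *Myt1l* (5%) was lower. *Tbx2* (chr11:85723377-85734115, + strand), a T-box repressor, had 18.8, 24.4 and 29.9 CPM at the lowest, median and highest library of Scramble KD and 34.0, 38.7 and 57.5 CPM in *Zfp598* KD, without overlap, at 0.65 with siRNA A and 0.90 with siRNA B. *Lhx1*, a LIM-homeodomain factor, had 4.94 to 8.81 CPM and 7.46 to 17.2 CPM (0.85 ± 0.14), and within each letter its libraries did not overlap. *Tbx2*, *Lhx1* and *Insm1* were called with each library left out, and *Myt1l* with 3 of 12.

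**Figure D5:**
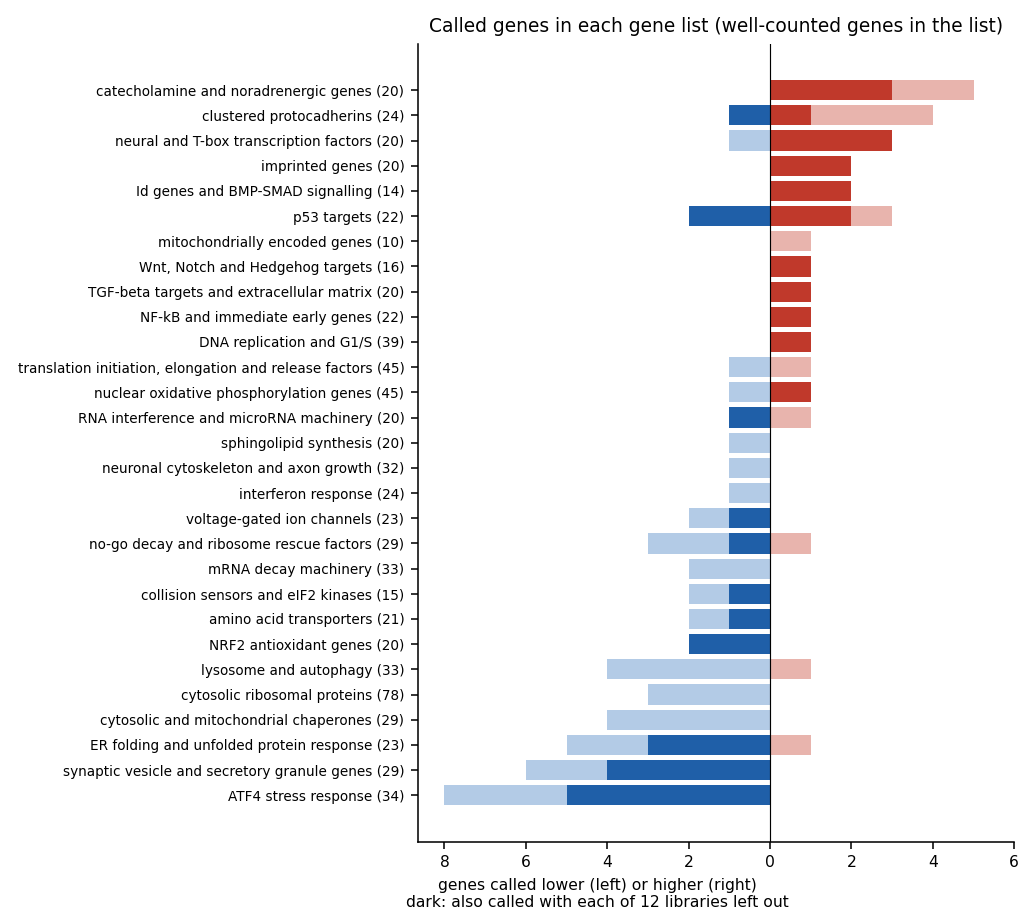
Number of called genes in each gene list that had any, lower to the left and higher to the right, with the number of well-counted genes of the list in brackets and dark bars for genes called with each of the 12 libraries left out in turn. The ATF4 list has the most lower genes, 8 of 34, and the catecholamine list the most higher genes, 5 of 20.

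The lists for cell growth held few called genes. Of 39 genes for DNA replication and G1/S, only *Mcm6* (2.56%), a subunit of the replicative helicase, was higher, and it was clear within each letter. It had 41.3, 37.4 and 46.9 CPM in Scramble A1 to A3 against 54.3, 59.5 and 67.6 in *Zfp598* A1 to A3, and 65.1, 55.8 and 70.3 in Scramble B1 to B3 against 108, 107 and 103 in *Zfp598* B1 to B3. The 40 mitosis genes had medians of opposite sign, 0.34 with siRNA A and −0.35 with siRNA B, and so had the 40 replication-dependent histone genes, at 0.50 and −0.33. In each of these lists edgeR called 0 genes and DESeq2 3, and 4 mitosis genes and 13 histone genes were at an unadjusted p under 0.05. With each siRNA alone, 5 mitosis genes and 6 DNA replication genes were called higher with siRNA A and lower with siRNA B. *Ccnd1*, cyclin D1, was higher at 0.52 ± 0.11. The p53 targets had more called genes, in both directions. Of 22, *Sesn1*, *Trp53inp1* and *Ccng1* (13.6%) were higher and *Plk3* and *Rrm2b* (9.09%) were lower. *Sesn1*, a stress-induced inhibitor of mTORC1 signalling, changed by 0.39 with siRNA A and 0.41 with siRNA B, and *Trp53inp1*, a p53 cofactor, went from 31.9 to 40.7 CPM to 43.5 to 50.2 CPM without overlap. *Rrm2b*, a ribonucleotide reductase subunit, changed by −0.29 with siRNA A and −1.40 with siRNA B (difference −1.11, adjusted p = 0.00074). *Cdkn1a* (0.24, adjusted p = 0.166) and *Mdm2* (0.04, adjusted p = 0.778), the best-known targets, were not called.

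By edgeR's calls with the letter block, lists for translation were close to the background. Of 78 cytosolic ribosomal protein genes, 3 (3.85%) were lower, *Rpl4*, *Rpl26* and *Rps29*, at −0.72 ± 0.18, −0.52 ± 0.12 and −0.51 ± 0.14. None kept its call with every library left out. The 78 genes had medians of opposite sign, 0.15 with siRNA A and −0.26 with siRNA B. DESeq2 called 9 of them lower and 1 higher, and 15 were lower and 2 higher at an unadjusted p under 0.05. Of 45 translation factors, *Eif2s2*, the beta subunit of eIF2, was lower and *Eif3b*, an initiation factor subunit, was higher (2.22% each), at −0.44 ± 0.11 and 0.45 ± 0.10, and both changed more with siRNA B (adjusted p = 0.0276 and 0.00213). Of 20 genes for RNA interference, *Ago2*, the slicing Argonaute that siRNAs use, was lower and *Ago1* higher (5% each). *Ago2* had 672, 807 and 736 CPM in Scramble A1 to A3 against 510, 458 and 470 in *Zfp598* A1 to A3, and 890, 884 and 872 in Scramble B1 to B3 against 652, 676 and 626 in *Zfp598* B1 to B3 (−0.53 ± 0.08). *Ago1* was at 0.13 with siRNA A and 1.02 with siRNA B (difference 0.89, adjusted p = 0.00111). *Nfkbia*, an inhibitor of NF-kB, was the only called gene of 22 NF-kB and immediate early genes (4.55%), at 0.55 ± 0.11, and *Lgals3bp* the only one of 24 interferon genes (4.17%), at −0.41 ± 0.10. The NF-kB list was not quiet with each siRNA alone. There, 7 of its 22 genes were called in opposite directions, beside 317 of the 12110 well-counted genes. Its median was 0.33 with siRNA A and −0.55 with siRNA B. Among glycolysis, cholesterol synthesis and proteasome genes, 33 each, edgeR called 0, while 5, 6 and 5 were at an unadjusted p under 0.05 and DESeq2 called 0, 0 and 1.

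The clustered protocadherins, adhesion proteins of neurons, had 8 higher and 1 lower of 42 well-counted genes (19% and 2.38%). The list used here held 24 of these, with 4 higher (16.7%), *Pcdhb19*, *Pcdhb22*, *Pcdha1* and *Pcdhb17*, and 1 lower (4.17%), *Pcdhac2*, and the whole family was counted after seeing these values. The other 4 higher genes were *Pcdha3*, *Pcdha10*, *Pcdhb15* and *Pcdhb18*. Without *Zfp598* A2 and A3, 5 of the 8 were called. The median of the list was −0.04 with siRNA A and 1.14 with siRNA B, and *Pcdhb19*, *Pcdhb22* and *Pcdha1* differed between the siRNAs (adjusted p = 0.0480, 0.0218 and 0.00329). Genes of these clusters share exons or are near copies, and their counts are uncertain. Of 20 imprinted genes, *Gnas*, the stimulatory G-protein subunit, and *Mest* were higher (10%), at 0.73 ± 0.13 and 0.63 ± 0.12. *Mest* had 271 to 442 CPM in Scramble KD and 444 to 638 CPM in *Zfp598* KD. Among 45 nuclear genes of oxidative phosphorylation, the complex I gene *Ndufs1* was higher (0.43 ± 0.08) and the ATP synthase gene *Atp5f1c* lower (−0.63 ± 0.14). Of 21 amino acid transporter genes, *Slc38a7* (−0.35 ± 0.07) was lower beside *Slc7a5* (9.52%). *Sgms2*, of 20 sphingolipid genes, and *Kif21b*, of 32 genes of the neuronal cytoskeleton, were lower too, at −0.54 ± 0.14 and −0.77 ± 0.20.

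Some of the largest rises were highest in the 2 libraries that stood apart. *Ndufa4l2*, a hypoxia-induced mitochondrial protein, had 36.3 and 57.7 CPM in *Zfp598* A2 and A3 and 15.1 to 25.3 CPM in the other 4 *Zfp598* KD libraries, and Scramble A1, at 30.0 CPM, was above these 4. The mitochondrially encoded gene *mt-Nd2* had 1208 and 802 CPM in A2 and A3, 381 in A1 and 481 to 725 in B1 to B3. *Gm42605*, of unclear coding status, had 80.3 and 108 CPM in A2 and A3, where the other *Zfp598* KD libraries had 29.4 to 47.3. *Gm12922*, *Gm4833* and *Gm7432*, annotated as pseudogenes, were also highest in A2 and A3, at 14.9 and 16.1, 14.4 and 14.7, and 13.9 and 12.4 CPM. All 6 of these genes lost their call without A2 and A3. The part of the most counted feature in these rises was not tested. *Gm34030*, a long noncoding RNA, did not share this pattern. It had 4.09 to 6.95 CPM in Scramble KD and 9.71 to 17.2 CPM in *Zfp598* KD, at 1.02 with siRNA A and 1.72 with siRNA B. *Gm44380*, *Gm49227* and *Gm9916*, also without a known role, were called with each library left out. *Cilp2*, *Hint2*, *Sft2d3* and the unannotated ENSMUSG00000058360 were called with 6, 1, 7 and 8 of the 12 libraries left out. They too lost their call without *Zfp598* A2 and A3. *Cilp2*, *Hint2* and ENSMUSG00000058360 were also highest in A2 and A3 among *Zfp598* KD libraries, at 7.36 and 7.61, 5.76 and 10.3, and 36.1 and 33.8 CPM.

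Annotated features of the genes differed little from those of all well-counted genes. Protein-coding genes made up 95.1% of the lower and 86.4% of the higher genes, beside 89.2% of all, and long noncoding RNAs 2.81%, 6.62% and 4.59%. The median coding length was 1476 bases for lower, 1524 for higher and 1431 for all genes, and the median number of exons was 10, 9 and 9. A run of 4 or more lysine codons, a sequence on which ribosomes can stall, was present in 5.17% of the lower, 4.68% of the higher and 4.62% of all coding genes.

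*Fmr1* KD libraries, set against the same Scramble KD libraries, are given for the main genes side by side and with no comparison of the KDs. *Fbn1* had 21.3 to 47.7 CPM in *Fmr1* KD and 17.5 to 36.8 CPM in *Zfp598* KD, and *Tbx2* 27.5 to 51.8 CPM and 34.0 to 57.5 CPM. In *Fmr1* KD, *Ddit3* had 93.3 to 97.8 CPM with siRNA A and 39.1 to 43.7 CPM with siRNA B. *Pvr* had 29.0 to 31.7 CPM with siRNA A and 17.5 to 19.8 CPM with siRNA B of *Fmr1* KD. *Calr* had 216 to 267 CPM over both *Fmr1* siRNAs. *Hmox1* had 20.0 to 110 CPM, a range that covered both other conditions. *Lhx1*, at 5.56 to 7.53 CPM, and *Gm34030*, at 4.52 to 6.65 CPM, were within their Scramble KD ranges.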

How the data were processed

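RNA of N2A cells was measured 72 h after siRNA transfection, and conditions and siRNAs came from the labels. The deposited values are raw counts of reads per gene, which the authors obtained with featureCounts over exons after trimming with TrimGalore and alignment with STAR to GRCm39. The annotation release, the strand setting and the handling of multimapping reads are not given in the sources used here, so counts of near-identical or overlapping genes are uncertain. All columns were used.

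Fold changes were fitted on the 12 libraries of *Zfp598* KD and Scramble KD with R 4.3.3 and edgeR 4.0.16 (glmQLFit, glmQLFTest, TMM) after filterByExpr with a minimum count of 10 and a minimum total of 15. This kept 18186 genes, over which p-values were adjusted by Benjamini-Hochberg, and 793 passed 0.05. The model held siRNA letter and condition. A second model, with 1 group per siRNA, gave the fold change of each siRNA and the test of their difference. The study analysed both siRNAs together in DESeq2. As an alternative here, DESeq2 1.42.0 was run with the siRNA letter as a block, so its counts do not repeat the study's analysis. The chi-square between counts of 2 libraries of the same siRNA, divided by its degrees of freedom, was never under 3.32, and no library was taken for a duplicate.

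GENCODE M39 gave symbols and coordinates for 54749 of 55414 genes, and promoters came from RefSeq (GRCm38.p6). The genes described, the 37 gene lists and the 8 marker lists were chosen with earlier results of these data known. The genes named were *Zfp598*, the 15 largest rises and the 15 largest falls by the smaller of the 2 fold changes, up to 5 called genes and textbook genes of each list, *Id3*, *Dbh*, *Map3k8* and *Tbr1*, and genes at the thresholds. Values of a few genes are not reported here. Genes outside this rule are described as named or looked at after their values were seen. The fits were tested on simulated data. Alternatives covered normalization, filters, blocks, left-out libraries and tools.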

Additional observations from a re-analysis of the deposited data

Results flagged for a closer look

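In all, 228 sets of 6 values were looked at, and 12 held a library far from the others. The sets were those of the called genes named here, the total counts and the share of the most counted feature in each condition. Chance flags about 1 in 20 groups. In Scramble KD, library B3 was the highest for *Ddit3* (181 CPM, others 108 to 129), *Ppp1r15a* (87.6 CPM, others 42.5 to 53.6), *Calr* (492 CPM, others 366 to 396) and *Manf* (60.8 CPM, others 33.6 to 43.4), all stress-response genes described as lower in *Zfp598* KD. Without Scramble B3, *Ddit3* and *Calr* were still called and *Ppp1r15a* and *Manf* were not. *Ndufa4l2* was high in Scramble A1 (30.0 CPM) and *Nucb2* in Scramble A2 (14.7 CPM). In *Zfp598* KD, library A3 was high for *Hint2* (10.3 CPM) and *Tbx2* (57.5 CPM) and low for *Calr* (236 CPM), and library A1 was high for *Atp5f1c* (168 CPM), *Hspe1* (147 CPM) and *Myt1l* (87.1 CPM). Whether these libraries differ in handling was not tested.

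For 20 of the 112 called genes named here, the size of the change differed between siRNA A and siRNA B by edgeR's test. Named genes that were not called, such as *Dbp*, were not included. The difference is given as siRNA B minus siRNA A on the log2 scale. Among higher genes it was 3.87 for *Ddc* (adjusted p = 3.54e-06), 1.34 for *Fbn1* (0.000546), 1.18 for *Pcdha1*, 1.10 for *Id3*, 0.89 for *Ago1*, 0.87 for *Pcdhb22*, 0.75 for *Pcdhb19*, 0.68 for *Mest*, 0.61 for *Eif3b* and 0.53 for *Nfkbia*. Among lower genes it was −1.21 for *Kif21b*, −1.11 for *Rrm2b*, −1.08 for *Rpl4*, −1.02 for *Matn3*, −0.78 for *Kcnk3*, −0.73 for *Gtpbp2*, −0.72 for *Rab3c*, −0.55 for *Aebp1* and −0.52 for *Eif2s2*, all of which changed more with siRNA B. *Atf3*, at 0.64, changed more with siRNA A.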

How the results depend on the processing

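Every called gene named here kept its direction under the alternatives, in 2553 of 2553 values over 111 genes besides *Zfp598*. Of these values, 638 no longer passed the threshold. The genes were chosen for the same sign with both siRNAs in these libraries, so a kept direction is no independent support. Named genes that were not called were not followed. *Zfp598* itself stayed between −1.63 and −1.46. The counts of genes moved far more. Genes higher and lower with both siRNAs are given with those called whatever the sign with each siRNA in brackets. With no filter on low counts they numbered 452 and 703 (549 and 822), and with DESeq2 and the letter block 616 and 782 (625 and 788). They numbered 438 and 714 (511 and 774) with only replicate 1 of *Zfp598* siRNA A and 456 and 674 (509 and 775) with the log2 share of the most counted feature as a covariate. Chosen after seeing the data, leaving out the 3 libraries in which that feature took over 10% gave 467 and 782 (571 and 851), and crossing the letters of the Scramble siRNAs gave 189 higher and 236 lower genes, of which 131 and 192 were among the 272 and 427 as chosen, and 50 of the 111 named genes were no longer called. Without the letter block 43 and 63 genes were called, and in the fit with the block 18 and 24 passed 2-fold. With each library left out, the counts ranged from 91 to 795 higher and 191 to 944 lower genes (91 to 807 and 191 to 955 in the fit), the largest without *Zfp598* A1. Over the same fits siRNA A alone called 426 (without *Zfp598* A2) to 3637 genes (without *Zfp598* A1), with 543 and 464 without Scramble A2 and A3. SiRNA B alone called 2078 (without *Zfp598* B1) to 4345, with 2118 and 2136 without *Zfp598* B2 and Scramble B2, and the siRNAs differed in 1809 to 4092 genes, the most without *Zfp598* A1. Without the filter siRNA A alone called 1795 genes. The cause was not tested. Deviations of same-numbered libraries had r from −0.60 to 0.36 over 6 pairs. *Zfp598* B1 and B3 followed the Scramble library of their own number best, and the other *Zfp598* KD libraries did not. So few values cannot show whether the numbers pair the libraries. A replicate block over these pairs left 10 higher and 21 lower genes. RLE size factors, removing the most counted feature, all 18 libraries, and mean counts of 20 or 100 kept every count within 1.5 times. Depth limits genes near the threshold of 50 counts, and 3 libraries per siRNA limit each single-siRNA test.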

Other observations

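Some genes outside the lists were named after their values were seen. *Iars1*, the isoleucyl-tRNA synthetase gene, had 238 to 324 CPM in Scramble KD and 187 to 227 CPM in *Zfp598* KD, with a log2 fold change of −0.47 ± 0.08 (SE). *Lars1*, the leucyl-tRNA synthetase gene, had 238 to 322 CPM and 215 to 229 CPM (−0.29 ± 0.08). *Nucb2*, a calcium-binding protein, had 8.49 to 14.7 CPM and 5.30 to 7.24 CPM (−0.66 ± 0.14). None of the 3 overlapped between the conditions, and they were called with 12, 4 and 10 of the 12 libraries left out.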
